A study of Mus musculus with 6 samples.

Results

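The 8 genes described here encode lineage factors of T cells. They are the 3 RUNX proteins Runx1, Runx2 and Runx3, their shared partner Cbfb, the zinc finger factor Gata3, the nuclear receptor Rora, and the BTB zinc finger repressors Zbtb7b and Zbtb32. They were chosen by name, with earlier results of these data known. All 8 were among the 16281 genes of the count table and among the 11698 genes with enough reads to be tested. The samples were CD8+ T cells from the spleens of OT1 mice on the C57BL/6 background, which carry the rearranged receptor transgene Tg(TcraTcrb)1100Mjb so that most of their T cells share one receptor. The cells were purified with a CD8+ T-cell isolation kit, activated for 48 h with anti-CD3 and anti-CD28 (2 μg/ml each) in IL-2 (20 ng/ml), and kept in IL-2 for 3 more days, to day 5. One group of 3 samples received 0.5 μM GSK2879552 (GSK), an irreversible inhibitor of the histone demethylase LSD1, during activation and expansion, and the other 3 received vehicle (Veh). Both groups carried the transgene and received the same antibodies and cytokine, so the comparison asks which genes differed between inhibitor and vehicle in activated CD8+ T cells. The age of the OT1 mice used for these libraries is not given in the sources used here.

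RUNX proteins bind DNA through a Runt domain and need Cbfb, which does not bind DNA itself, for stable binding. In developing T cells Runx3 silences Cd4 and sustains the CD8 lineage, whereas Zbtb7b, also called ThPOK, drives the CD4 lineage, and the pair oppose each other. Gata3 is needed at several steps of T-cell development and directs type 2 helper cells, Rora supports type 2 innate lymphoid and type 17 helper cells, and Zbtb32, also called PLZP or ROG, was described as a repressor of GATA factors that is induced when lymphocytes are activated.

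The libraries held 18288447 to 18918811 gene counts in Veh and 19149909 to 19846720 in GSK, and the 8 genes had between 247 and 5476 counts in a sample. Levels are given as CPM, gene counts per 1000000 counts of a library, with library sizes scaled by TMM factors, and differences as log2 fold changes of GSK over Veh, tested in edgeR by quasi-likelihood, with p-values adjusted by the Benjamini-Hochberg method over all 11698 genes. Below, a gene rose or fell where its adjusted p was under 0.05, and it passed both thresholds where its fold change was also over 1.5. Cd3d, Cd3e, Cd3g, Cd8a, Cd8b1 and other CD8 T-cell markers summed to between 4624 and 4726 CPM in Veh and between 4667 and 4857 CPM in GSK. Of these 9 markers, all tested, Cd2, Lck and Thy1 rose, and Cd3d, Cd3e, Cd3g and Cd28 fell. Over all genes tested, 16.6% rose and 15.5% fell. Log2 fold changes ran from -0.38 for Cd3g (adjusted p = 6.0e-05) to 0.23 for Thy1 (adjusted p = 2.0e-04). Cd2, Lck and Cd3d did not pass in every alternative. In contrast, Cd4, Foxp3 and Cd40lg together gave at most 5.69 CPM in a Veh sample and 6.98 in a GSK sample. Among these, Cd40lg had 4, 15 and 6 counts in Veh and 29, 24 and 22 in GSK and rose (log2 fold change 1.52, adjusted p = 0.018), a call lost without Veh replicate 1, Veh replicate 3 or GSK replicate 1 (up to 0.081), while Cd4 and Foxp3 did not pass. Summed markers of ILC2, NK and B cells were low, and the groups did not overlap for the first and second of these but did for B cells. The sums lay between 8.32 and 9.20 CPM in Veh and between 11.6 and 17.2 CPM in GSK for ILC2, between 11.4 and 12.3 CPM and between 16.0 and 19.1 CPM for NK cells, and between 6.36 and 8.21 CPM and between 8.13 and 9.67 CPM for B cells. Of their tested members, Il1rl1, Klre1 and Cd22 rose (Klre1 not without GSK replicate 1, adjusted p = 0.056). Cd22 had 4, 11 and 8 counts in Veh and 54, 53 and 44 in GSK (log2 fold change 2.65, adjusted p = 1.5e-04). Like Cd40lg, it had enough counts for the test in every GSK sample but not in every Veh sample. The rises of Cd22 and Cd40lg are thus not independent of the filter on low counts. The NK markers Klrb1c and Klra7 did not pass, nor did the B-cell marker Cd79b, which was lower in every GSK sample, at 6.51 ± 1.02 CPM in Veh against 4.90 ± 0.238 in GSK (SD, n = 3 each; log2 fold change -0.41, adjusted p = 0.070), while Il5, Ncr1, Ms4a1 and other defining markers were too low to be tested. Myeloid markers summed to between 11.7 and 16.5 CPM in Veh and between 10.3 and 13.7 CPM in GSK, and erythroid and megakaryocyte markers to between 1.90 and 2.63 CPM and between 0.893 and 1.56 CPM. Of the latter lists Fcgr3 and Itga2b passed as lower, though not in every alternative, and Sox13, the gamma-delta T-cell marker in the table, stood at 1.12 CPM in both groups. In bulk RNA, fewer cells expressing a gene and less RNA per cell cannot be told apart.

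Of the 8 genes, 7 passed the adjusted p, 3 of them higher in GSK (Runx2, Cbfb and Zbtb32) and 4 lower (Gata3, Rora, Runx1 and Runx3). Among all genes tested, 32.1% passed it in either direction, 16.6% higher and 15.5% lower. Of the 8, 2 genes passed both thresholds, Gata3 and Rora, both lower in GSK. Over all genes tested 4.09% passed both thresholds as lower and 2.22% as higher, and none of the 8 was among the latter. The 3 GSK samples lay entirely on one side of the 3 Veh samples for 7 of the 8 genes, against 46.7% of all genes tested. The median size of the log2 fold change was 0.36 over the 8 genes and 0.16 over all genes tested. The 8 genes were chosen with earlier results of these data known, so their excess over all genes is not independent evidence. The plot of levels by sample shows the separation of the groups in each gene except Zbtb7b.

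**Figure D1:**
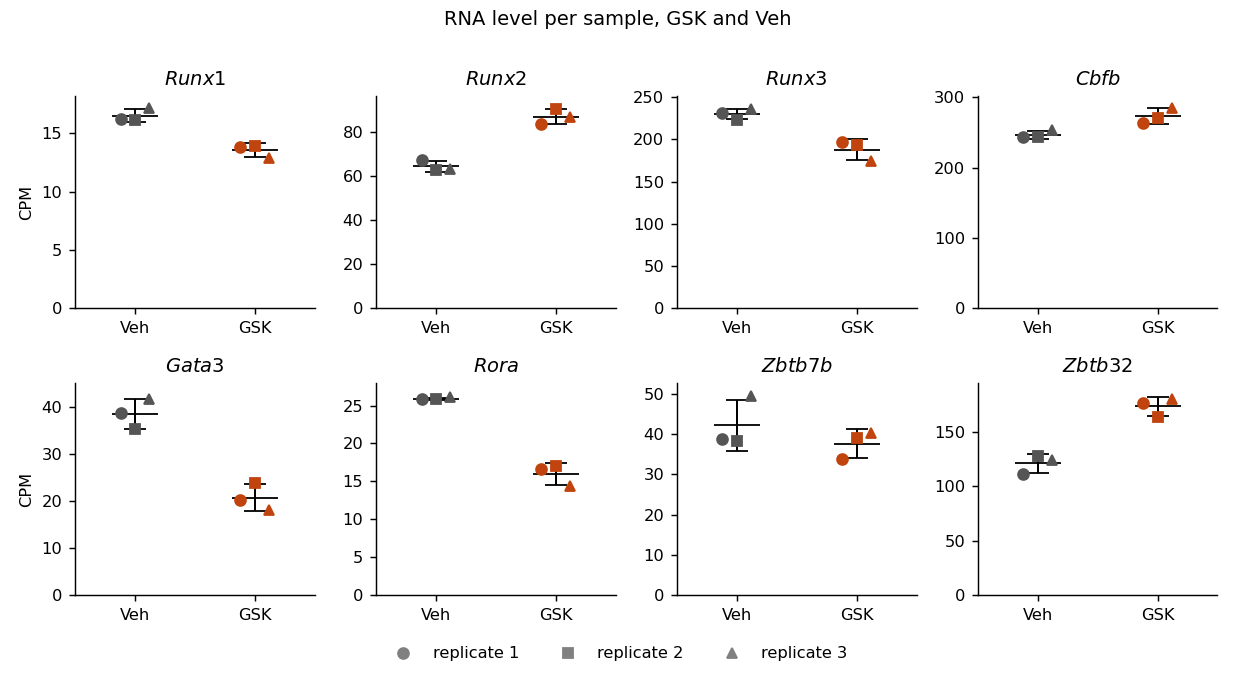
RNA level of each of the 8 genes in the 3 Veh (grey) and 3 GSK (orange) samples, in CPM on axes that start at 0. Symbols mark the replicate number, and the horizontal bar with whiskers is the mean ± SD of each group. Gata3 and Rora show the largest relative drops, Zbtb32 and Runx2 lie higher in every GSK sample, and the groups overlap only in Zbtb7b.

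Runx3, the RUNX factor that sustains the CD8 lineage and cytotoxic genes, was the most abundant of the 3 RUNX genes and fell under GSK. It measured 230.7, 223.5 and 236.2 CPM in Veh and 196.8, 193.2 and 173.8 CPM in GSK. All GSK samples lay under all Veh samples, with GSK replicate 3 the lowest. The mean went from 230.1 ± 6.37 to 187.9 ± 12.3 CPM (SD, n = 3 each), a change of -18.3% or -0.29 on the log2 scale (95% interval -0.40 to -0.18, adjusted p = 0.0010).

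Runx2, known best as the master regulator of bone formation and also expressed in long-lived CD8 T cells, moved the other way. Its levels were 67.1, 62.5 and 63.3 CPM in Veh and 83.7, 90.3 and 86.7 CPM in GSK. Every GSK sample lay above every Veh sample, and the gap between the groups was wider than the range within either. The mean rose from 64.3 ± 2.44 to 86.9 ± 3.31 CPM (SD, n = 3 each), by 35.2%, with a log2 fold change of 0.44 (SE 0.053, adjusted p = 8.4e-05). The region of Runx2 shares 37680 bases with Supt3, a subunit gene of chromatin-modifying complexes and the only gene overlapping any of the 8 that was in the count table. Supt3 had 199 to 243 counts in Veh and 203 to 264 in GSK and did not pass the test (log2 fold change 0.08, adjusted p = 0.66).

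Runx1, required for blood stem cells and for early thymocytes, gave 16.3, 16.1 and 17.1 CPM in Veh and 13.9, 13.9 and 12.9 CPM in GSK. The groups did not overlap, and the lowest Veh sample stood above the highest GSK sample by 2 CPM. The log2 fold change was -0.29 (SE 0.089, 95% interval -0.48 to -0.09, adjusted p = 0.027), close in size to that of Runx3 but with a wider interval. The call did not hold in DESeq2 (adjusted p = 0.086) or with the replicate number as a block (adjusted p = 0.051), and it was lost when Veh replicate 1, Veh replicate 3, GSK replicate 1 or GSK replicate 3 was left out, with adjusted p up to 0.090 and log2 fold changes between -0.31 and -0.25.

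Cbfb, the non-DNA-binding partner, was the most abundant of the 8 genes per exon length in Veh. It measured 243.2, 244.2 and 253.6 CPM in Veh and 264.1, 270.8 and 285.5 CPM in GSK. The groups did not overlap, and the difference of the means was 10.7%, the smallest of the 7 that passed. The log2 fold change was 0.15 (SE 0.043, adjusted p = 0.020). It did not pass under upper quartile scaling (0.11, adjusted p = 0.071) or without Veh replicate 1, Veh replicate 2 or GSK replicate 3, where the adjusted p reached 0.078.

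Divided by the total exon length of each gene, Runx3 supplied 83.8%, 84.2% and 84.6% of the summed RUNX RNA in the Veh samples and 78.7%, 77.2% and 76.2% in the GSK samples. The difference of the mean shares, GSK minus Veh, was -6.80 percentage points, and the groups did not overlap (exact permutation test, two-sided, p = 0.1, the smallest that 3 against 3 samples allow). The share of Runx2 was 13.8%, 13.3% and 12.8% in Veh and 19.0%, 20.4% and 21.5% in GSK, higher by 6.99 points (exact permutation p = 0.1). Runx1 held between 2.46% and 2.55% in Veh and between 2.31% and 2.35% in GSK. Every GSK sample thus had a lower Runx3 share and a higher Runx2 share than every Veh sample, while the mean share of Runx1 differed by -0.19 points. In the log2 ratio of Cbfb to the 3 RUNX genes together, a value chosen after the data were seen, Veh samples had 0.34, 0.40 and 0.39 and GSK samples 0.60, 0.64 and 0.85 (exact permutation p = 0.1). This ratio was higher in every GSK sample than in every Veh sample.

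**Figure D2:**
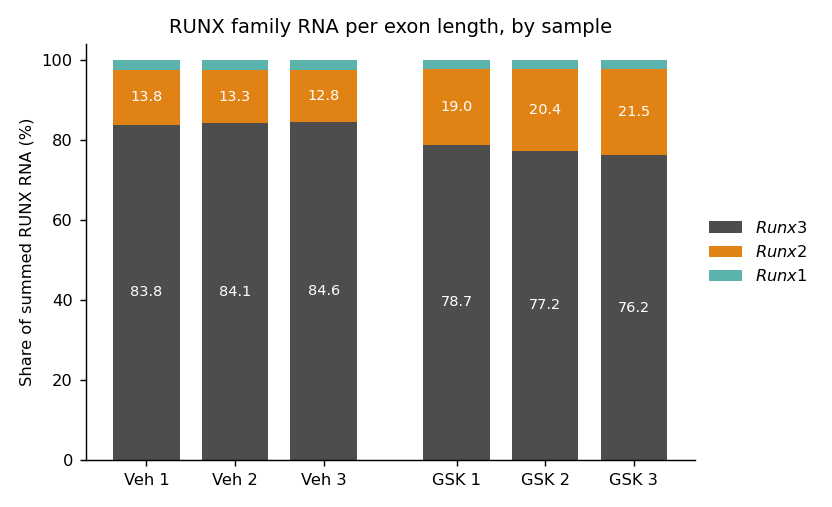
Share of Runx3, Runx2 and Runx1 in the summed RUNX RNA of each sample, in percent, from CPM divided by total exon length. Bars stack to 100%. Runx3 takes 83.8 to 84.6% of the bar in Veh and 76.2 to 78.7% in GSK, and Runx2 fills the difference.

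The RUNX genes are alike at their distal promoters as well as in their protein family. RefSeq promoter windows (GRCm38.p6, 250 bases before to 50 bases after the start site) were at hand for all 8 genes, 12 windows in all, and were searched on both strands for 4 short motifs. The letters TGTGGT and the rarer form of this motif, TGCGGT, are those known for RUNX factors, whereas GATAA is the core known for GATA factors. The letters AGGTCA are part of the element known for ROR receptors. The windows of the distal starts of Runx1, Runx2 and Runx3 share a run of 18 bases that holds the first RUNX motif, read on the opposite strand as ACCACA, at 2 places 8 bases apart. The stretches below are shown because this run is common to the 3 genes whose balance shifted. They are written in the direction of transcription, with both copies of ACCACA in capitals, from chr16:92826025-92826054 on the minus strand for Runx1 (bases 21 to 50 after the start site), chr17:44814583-44814612 on the minus strand for Runx2 (bases 16 to 45 after it) and chr4:135120503-135120532 on the plus strand for Runx3 (bases -142 to -113, before it).
Runx1: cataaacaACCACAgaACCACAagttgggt
Runx2: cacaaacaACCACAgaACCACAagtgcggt
Runx3: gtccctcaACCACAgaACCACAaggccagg
The 18-base run was present in 4 of 32851 windows (0.0122%), these 3 and that of Gm16225, which lies over the same DNA as the distal window of Runx3. The run was picked as the longest that these 3 windows share, so its presence in them was fixed in advance. Pairs of TGTGGT on one strand with starts 8 bases apart occurred in 7 windows (0.0213%), the 4 with the run among them. The printed stretch of Runx2 also holds the rarer RUNX form, read in the direction of transcription from base 40 after the start site and left in lower case. The same Runx2 window holds another copy of the first RUNX motif, 80 bases before the start site, and the ROR motif 89 bases before it, the only ROR match among the 12 windows. The second windows of Runx1 and Runx3, at their proximal starts, held none of the 4 motifs, and Runx2 had no second window. The counts sum all transcripts of a gene, so distal and proximal transcripts of Runx1, Runx2 and Runx3 were not told apart.

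Elsewhere, TGTGGT stood 89 bases before one start of Zbtb7b and 227 bases before one start of Zbtb32, and TGCGGT was in both Zbtb32 windows. The single windows of Gata3, Rora and Cbfb held none of the 4 motifs, and GATAA was in no window of the 8 genes. Over all windows the first RUNX motif was found in 16.8%, its rarer form in 6.45%, the GATA motif in 25.4% and the ROR motif in 16.3%. A match describes letters in the reference and not binding in these cells.

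Among the genes whose products partner RUNX factors, 9 of 11 listed symbols were tested, of which 1 rose and 4 fell (median log2 fold change -0.12, against -0.00387 over all genes tested). Runx1t1 was not in the count table, nor was Aes, an older symbol of the tested gene Tle5. Counts in this and the later lists can be set beside all genes tested, of which 16.6% rose and 15.5% fell. Cbfa2t3, a corepressor of the ETO family, fell from 7.88 ± 0.902 to 4.30 ± 0.747 CPM (SD, n = 3 each; log2 fold change -0.87, adjusted p = 0.0018). Of the Groucho-type corepressors, Tle2 fell at low counts from 2.97 ± 0.848 to 1.37 ± 0.479 CPM (log2 fold change -1.11, adjusted p = 0.015), a call that was lost without Veh replicate 3 (adjusted p = 0.076) or GSK replicate 1 (0.074). Tle3, the Groucho gene that rose, went from 121.9 ± 1.70 to 162.6 ± 1.75 CPM (log2 fold change 0.42, adjusted p = 2.2e-05). Tle4 and Ets1, whose product binds DNA together with Runx1, fell by 0.21 and 0.18 on the log2 scale. Tle4 did not pass without Veh replicate 1, Veh replicate 3 or GSK replicate 1 (adjusted p up to 0.087), nor Ets1 without Veh replicate 1 (0.061).

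Of 10 genes listed as bound by Runx3 in CD8 cells, 9 were tested, of which 4 rose, 1 fell and 4 did not pass (median log2 fold change 0.15). Over all genes tested, 16.6% rose and 15.5% fell. Prf1, the pore-forming protein of cytotoxic granules, measured 39.8, 42.5 and 44.6 CPM in Veh and 87.7, 85.3 and 98.2 CPM in GSK (log2 fold change 1.09, adjusted p = 3.9e-07). Eomes, a T-box factor of cytotoxic cells, rose from 204.4 ± 9.38 to 433.2 ± 17.7 CPM (SD, n = 3 each; adjusted p = 1.5e-08). Every GSK sample lay above every Veh sample in both genes while Runx3 itself lay below in each. Ifng, the effector cytokine, rose from 4.75 ± 2.08 to 12.4 ± 1.92 CPM (adjusted p = 0.014, and 0.052 without GSK replicate 3). The granule protease Gzmb rose by 0.62 on the log2 scale (adjusted p = 0.019), a call lost without Veh replicate 1, Veh replicate 3 or GSK replicate 1, with adjusted p up to 0.068. Ccl5, a chemokine, fell from 44.7 ± 1.55 to 27.4 ± 5.08 CPM (log2 fold change -0.70, adjusted p = 9.7e-04). Cd8a and Cd4, the loci that Runx3 activates and silences, had log2 fold changes of 0.07 (adjusted p = 0.20) and -0.30 (adjusted p = 0.66), with Cd4 near 1 CPM in both groups. The NK-cell marker sums were also higher in every GSK sample, from 16.0 to 19.1 CPM against 11.4 to 12.3 CPM in Veh, although Klre1 alone of the 3 NK markers tested passed, and their part in the result was not tested.

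Zbtb7b, the CD4-lineage factor that opposes Runx3, did not pass the test. It measured 38.8, 38.2 and 49.4 CPM in Veh and 33.7, 38.9 and 40.3 CPM in GSK, so that the groups overlapped and Veh replicate 3 stood above all others. The log2 fold change was -0.16 (95% interval -0.39 to 0.07, adjusted p = 0.27) and became -0.03 (adjusted p = 0.82) without Veh replicate 3. The log2 ratio of Runx3 to Zbtb7b per exon length was 2.73, 2.71 and 2.42 in Veh and 2.71, 2.47 and 2.27 in GSK. These ranges overlapped, and the mean difference of -0.14 had an exact permutation p of 0.5.

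All 14 genes listed for CD4 and CD8 lineage choice were tested, of which 2 rose and 3 fell (median log2 fold change -0.03). Over all genes tested 16.6% rose and 15.5% fell, shares near those of this list. Tcf7, which encodes TCF-1, a factor of thymocytes and of memory precursors, had 347.4, 264.7 and 286.7 CPM in Veh and 134.7, 143.4 and 93.1 CPM in GSK. All GSK samples lay under all Veh samples, and the log2 fold change was -1.28 (SE 0.209, adjusted p = 0.012). Its relative Lef1 fell by 0.39 and the E-protein gene Tcf12 by 0.20 on the log2 scale. Socs1, a suppressor of cytokine signalling, rose by 0.36, and Myb rose by 0.19 with an adjusted p of 0.042 that was lost in 6 of the 12 alternatives run, among them DESeq2 and the fits without Veh replicate 1, Veh replicate 2, GSK replicate 1 or GSK replicate 3 (adjusted p up to 0.17). Patz1, Satb1, Ikzf1, Bcl11b, Tox and Tcf3 did not pass the test.

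**Figure D3:**
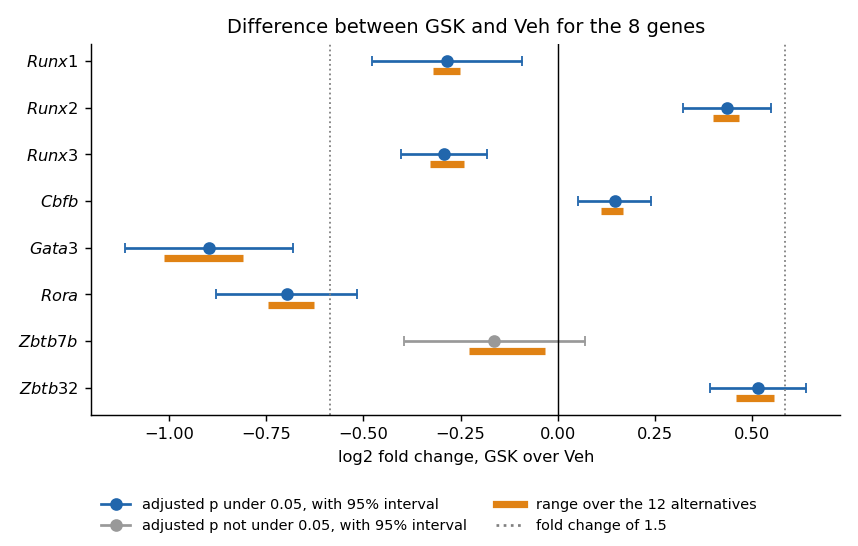
Log2 fold change of GSK over Veh for the 8 genes. Points with whiskers are the estimate and its 95% interval from edgeR's quasi-likelihood test (n = 3 per group), blue where the adjusted p was under 0.05. Orange bars span the 12 alternative fits, and dotted lines mark a fold change of 1.5. Only the points of Gata3 and Rora lie beyond a dotted line, and the interval of Rora crosses it.

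Gata3 showed the largest difference of the 8 genes. It measured 38.7, 35.4 and 41.7 CPM in Veh and 20.2, 23.8 and 18.1 CPM in GSK. The highest GSK sample stood 11.5 CPM under the lowest Veh sample. The mean fell from 38.6 ± 3.19 to 20.7 ± 2.90 CPM (SD, n = 3 each), a log2 fold change of -0.90 (SE 0.099, 95% interval -1.11 to -0.68, adjusted p = 6.0e-05) or a change of -46.3% (95% interval -53.8% to -37.6%). The gene ranked 162 of 11698 by p, and it passed both thresholds in all 12 alternatives run, with log2 fold changes from -1.01 to -0.81. Gata3 (chr2:9857078-9887953, GRCm38.p6, minus strand) overlaps the long noncoding genes 4930412O13Rik and 9230102O04Rik, neither of which was in the count table.

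The other GATA genes and the cofactors of the family gave no call. Of 12 listed, 4 were tested and none rose or fell by edgeR's adjusted p, none had an unadjusted p under 0.05, and the count was 0 in each of the 12 alternatives, DESeq2 included. Gata1, the erythroid member, stood at 6.09 CPM in Veh against 6.07 in GSK, and Gata2, Gata4, Gata5 and Gata6 had at most 7 counts in a sample. Zfpm1, or FOG1, which binds GATA factors, stood at 77.3 and 74.5 CPM, and the adaptors Ldb1 and Lmo4 had log2 fold changes of -0.06 (adjusted p = 0.34) and 0.08 (adjusted p = 0.48).

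Among 13 genes listed for the type 2 program, which Gata3 directs in helper cells and ILC2, 6 were tested. Of these, 4 rose, all past both thresholds, and none fell (median log2 fold change 0.68). Both the count and the median include Ptgdr2, which had enough counts to be tested only in the GSK samples. Its rise is therefore no support, since only a rise could have been called for it. Over all genes tested 16.6% rose, and 2.22% passed both thresholds as higher. Bhlhe41 and the DNA repair gene Rad50 did not pass (adjusted p = 0.63 and 0.96). Il1rl1, the receptor for IL-33, measured 7.83, 8.64 and 9.04 CPM in Veh and 13.4, 11.5 and 17 CPM in GSK (log2 fold change 0.72, adjusted p = 0.0023). Ccr4, a chemokine receptor, rose from 25.0 ± 3.99 to 39.0 ± 6.06 CPM (log2 fold change 0.64, adjusted p = 0.0082) and Maf, a factor for Il4 transcription in helper cells, from 6.03 ± 0.0940 to 10.8 ± 3.44 CPM (log2 fold change 0.84, adjusted p = 0.0092). In all 3 genes the GSK samples lay above the Veh samples, opposite in direction to Gata3. Ptgdr2, the prostaglandin D2 receptor, rose from 5 to 8 counts in Veh to 14 to 20 in GSK (adjusted p = 0.027), a call lost in DESeq2, with no filter and without Veh replicate 1, Veh replicate 2, GSK replicate 1 or GSK replicate 3 (adjusted p up to 0.11). The cytokine genes Il4, Il5, Il9 and Il13 had at most 5 counts in a sample, too few to be tested. Il1rl1 is also one of the ILC2 markers, and whether other cells had a part in its rise was not tested, while the ILC2 markers Il5, Il13, Areg, Arg1 and Il17rb were too low to be tested. Of the 3 helper-cell markers, Cd40lg was also higher in GSK, at low counts and not past the adjusted p in every alternative. Cd4 and Foxp3 did not pass (log2 fold changes -0.30 and 0.12, adjusted p = 0.66 and 0.82). The part of helper cells in these genes was not tested.

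Rora fell with little spread in Veh. It measured 25.8, 25.9 and 26.1 CPM in Veh and 16.6, 17 and 14.3 CPM in GSK. The groups were 8.83 CPM apart at their nearest samples, whereas the 3 Veh samples spanned less than 1 CPM. The mean went from 25.9 ± 0.127 to 16.0 ± 1.43 CPM (SD, n = 3 each), a log2 fold change of -0.70 (SE 0.084, 95% interval -0.88 to -0.52, adjusted p = 8.2e-05) or a change of -38.3%. Rora passed both thresholds in all 12 alternatives run (log2 fold changes from -0.75 to -0.63). Its region, chr9:68653404-69388246 on the plus strand of GRCm38.p6, spans 734843 bases and overlaps 5 long noncoding genes, none of them in the count table.

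Rora activates and the REV-ERB receptors Nr1d1 and Nr1d2 repress through the same DNA element. Both REV-ERB genes rose while Rora fell. Nr1d2 went from 11.8 ± 1.27 to 15.7 ± 2.36 CPM (SD, n = 3 each; log2 fold change 0.42, adjusted p = 0.021), and Nr1d1, a low gene, had 7, 15 and 12 counts in Veh and 31, 21 and 29 in GSK (log2 fold change 1.20, adjusted p = 0.025). Nr1d1 did not pass in DESeq2, with the replicate number as a block (adjusted p = 0.052), or without Veh replicate 1, Veh replicate 3, GSK replicate 1 or GSK replicate 3 (up to 0.11). Nr1d2 did not pass without Veh replicate 2, Veh replicate 3, GSK replicate 2 or GSK replicate 3 (up to 0.093). Of 5 clock genes with this element, Cry1, a clock repressor, rose from 23.9 ± 0.569 to 29.5 ± 0.706 CPM (adjusted p = 0.0048), Nfil3 fell from 72.8 ± 10.4 to 52.0 ± 4.48 CPM (adjusted p = 0.0067), and Arntl, Clock and Npas2 did not pass the test. Of 10 type 17 genes, 3 were tested, none passed edgeR's adjusted p or had an unadjusted p under 0.05, and DESeq2 and the other alternatives passed none. Ahr had a log2 fold change of 0.54 (adjusted p = 0.21) and Tmem176a one of -0.39 (adjusted p = 0.19), with overlapping groups in both.

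**Figure D4:**
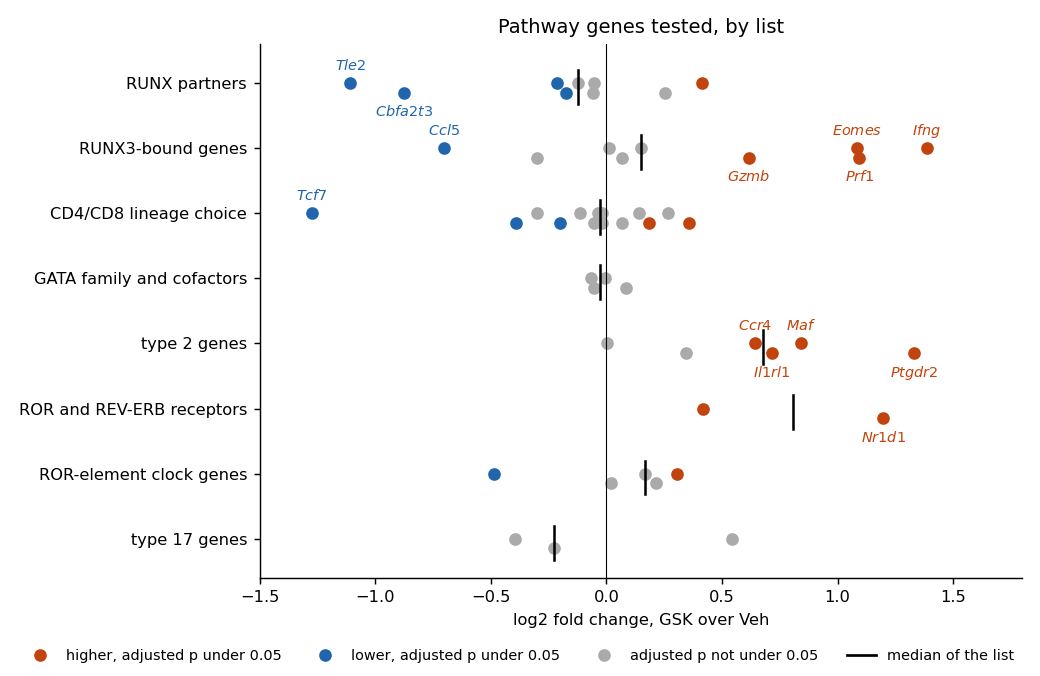
Log2 fold change of GSK over Veh for every tested gene of 8 lists tied to the factors, 1 row per list. Orange and blue points passed the adjusted p as higher and lower, grey points did not, and black ticks mark list medians. Names are given for genes that also had a fold change over 1.5. The type 2 genes that passed lie to the right of 0, and no point of the GATA family list leaves the centre.

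Zbtb32 had the smallest p of the 8 genes and ranked 146 of all genes tested. It measured 111.4, 127.8 and 124.4 CPM in Veh and 176.2, 163.4 and 180.3 CPM in GSK. The lowest GSK sample stood well above the highest Veh sample. The mean rose from 121.2 ± 8.65 to 173.3 ± 8.83 CPM (SD, n = 3 each), by 43.0%, with a log2 fold change of 0.52 (SE 0.058, 95% interval 0.39 to 0.64, adjusted p = 4.8e-05). This fold stayed under 1.5 in all 12 alternatives, where the log2 fold change ranged from 0.46 to 0.56 and the adjusted p stayed under 0.05. Zbtb32 was thus higher, and Gata3 lower, in each GSK sample than in each Veh sample.

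Among the tested genes named Zbtb with a number, Zbtb32 alone rose, and BTB zinc finger genes with other names were not counted. Of 38 other genes named Zbtb with a number, Zbtb7b left out, 35 were tested, of which none rose and 10 fell (median log2 fold change -0.11). The shares over all genes tested were 16.6% and 15.5%. By edgeR, none of the 35 was higher at an unadjusted p under 0.05. The count of rising genes was 0 in each of the 12 alternatives, DESeq2 included, and the count of falling genes ranged from 6 to 12. The highest log2 fold change among the 35 was 0.10, against 0.52 for Zbtb32, which ranked 1 of the 37 genes so named and tested. Zbtb20, a repressor expressed in B cells and memory CD8 T cells, fell most, from 20.1, 17.2 and 13.8 CPM in Veh to 8.14, 11.2 and 7.61 CPM in GSK (log2 fold change -0.92, adjusted p = 0.0024). Zbtb12 fell from 5.04 ± 0.892 to 3.11 ± 0.754 CPM (log2 fold change -0.70, adjusted p = 0.027), a call lost without Veh replicate 1, Veh replicate 3 or GSK replicate 2 (adjusted p up to 0.11). Zbtb1, required for lymphoid development, fell by 0.38 and Zbtb38, which binds methylated DNA, by 0.39 on the log2 scale. Zbtb16, or PLZF, the factor of innate-like T cells, had at most 4 counts in a sample and was not tested.

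**Figure D5:**
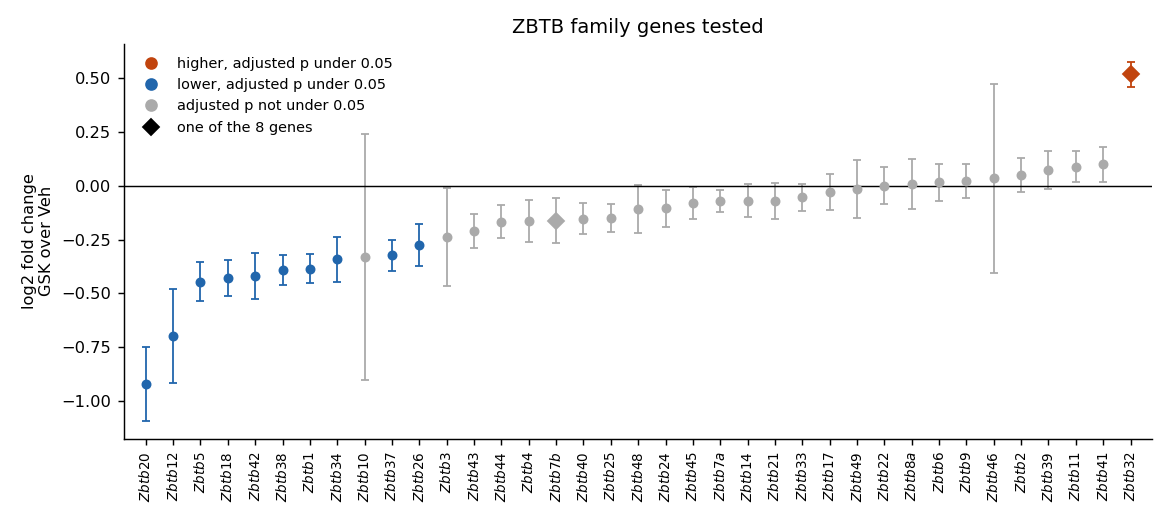
Log2 fold change of GSK over Veh for the 37 ZBTB genes tested, ordered from lowest to highest, with whiskers of 1 standard error. Blue genes fell and orange genes rose by the adjusted p, and diamonds mark Zbtb7b and Zbtb32. Zbtb32 is the orange point at the right end, at 0.52, and the next gene lies at 0.10.

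Levels can be set between genes only per length. In CPM per kilobase of total exon length, Veh samples ran in the order Cbfb (71.0), Zbtb32 (51.4), Runx3 (46.0), Gata3 (9.70), Zbtb7b (7.53), Runx2 (7.28), Rora (1.98) and Runx1 (1.37). The ranges of Zbtb7b and Runx2 overlapped, and those of Zbtb32 and Runx3 came within 0.1 of each other, from 47.3 to 54.2 and from 44.7 to 47.2. In GSK the order was Cbfb (78.6), Zbtb32 (73.5), Runx3 (37.6), Runx2 (9.83), Zbtb7b (6.73), Gata3 (5.21), Rora (1.22) and Runx1 (1.13). There, Cbfb overlapped Zbtb32 and Rora overlapped Runx1. Gata3 and Runx2 thus exchanged the fourth and sixth places of the order between the groups, though Zbtb7b came close to Gata3 in both. In Veh Zbtb7b ran from 6.83 to 8.84 and Gata3 from 8.89 to 10.5, and in GSK from 6.03 to 7.21 and from 4.55 to 5.99. With the longest transcript as the length, Runx1 stood above Rora in both groups, Runx2 above Zbtb7b in Veh, and Zbtb32 above Cbfb in GSK. With that length Runx2 came next after Gata3 in Veh, so the exchange of those places did not hold.

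Across the 6 samples, the genes whose centred log2 CPM lay nearest to that of Gata3 were Kiz, Gbe1 and Rasa3, at distances of 0.09 to 0.11. For Rora they were Pdk1, Abhd18 and Abca3, and for Zbtb32 they were Rrs1, Bax and Mthfd1. Runx3 lay nearest to Smg6, Fance and Map3k4, Runx1 to Arl6ip5, Npepps and Ccsap, and Cbfb to Brd7, Sipa1 and Taf12. None of these lists named another of the 8 genes. With 6 samples in 2 groups, genes with a like difference between the groups lie near each other.

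Some genes named above share bases with another gene of the count table, Tle2 with Tle6, Nr1d1 with Thra, Tcf7 with Skp1, Ptgdr2 with Ccdc86, Tmem176a with Tmem176b and Zbtb20 with Tigit. The library kit keeps strand, but the strand setting of the counting is not given in the sources used here, so counts near such overlaps are uncertain.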

How the data were processed

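RNA-seq was made by the authors with a stranded poly(A) kit from 6 cultures, 3 Veh and 3 GSK, and labels name each as a separate replicate. Per the labels and methods, reads were trimmed with Trimmomatic, aligned to GRCm38 with HISAT2 2.1.0 and counted per gene with HTSeq 0.11.2, and the submitters' notes also name Cufflinks 2.2.1 and DESeq2 1.22.2. The deposited values used here are the authors' raw read counts per gene, without normalization, summing to 18288447 to 19846720 per sample. Annotation release and strand setting are not given in the sources used here.

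The counts were filtered with filterByExpr (11698 of 16281 genes kept), scaled by TMM and fitted with the robust quasi-likelihood test of edgeR 4.0.16 in R 4.3.3, with no covariate. Both thresholds, 0.05 for the adjusted p and 1.5 for the fold, follow the study. RUNX shares used exon lengths from a GENCODE annotation of GRCm38 and exact permutation tests over samples. Replicates differed by more than counting noise (chi-square per degree of freedom 3.95 to 9.02), so none was merged. The study's results name cells from 3 separate OT1 mice, and its figure legend gives 3 mice per group. Whether cultures of both groups came from the same mice is not stated. The p-values set the difference between groups against the spread between these samples.

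The 8 genes and all lists were chosen with earlier results of these data known. Runx1, Runx2 and Runx3 were among the factors the study itself displayed from these samples. Neither the directions nor the shares of genes passing here are therefore independent evidence. Named from each list were genes past both thresholds, up to 4 by smallest p, otherwise up to 2, together with overlapping genes and the 3 nearest genes of each member that passed (those of Runx2 are not reported here). Further list genes, such as Tle3, Tle4, Ets1, Gzmb, Nr1d2, Lef1, Tcf12, Socs1, Myb, Zbtb1 and Zbtb38, were named after their values were seen. Alternatives were DESeq2 1.42.0, RLE and upper quartile scaling, no filter, a filter of 1 CPM in 3 samples, the replicate block, and leaving out each sample. The main edgeR fit was also run on simulated counts in which 200 of 11698 genes changed by a fold of 2. It recovered 91% of these and made 19 false calls, a larger share of its calls than the 0.05 set by the adjusted p. In the data 3760 genes passed, and each of the 8 genes changed by less than a fold of 2. The 91% therefore does not describe changes of their size. Protein sequences were not analysed here.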

Additional observations from a re-analysis of the deposited data

How the results depend on the processing

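Over 12 alternative fits, no log2 fold change of the 8 genes changed sign. Gata3 and Rora kept both thresholds, and Runx2, Runx3 and Zbtb32 the adjusted p, in all 12. Runx1 and Cbfb lay near the threshold. Runx1 lost its call in DESeq2 (log2 fold change -0.2844, adjusted p = 0.0859), and Cbfb under upper quartile scaling (0.1118, adjusted p = 0.0707). With one sample left out, values ranged from -0.3058 to -0.2521 for Runx1 and from 0.1122 to 0.1691 for Cbfb. Zbtb7b did not pass in any alternative. With the replicate number as a block, Runx1 gave -0.2853 (adjusted p = 0.0511) and no other gene of the 8 changed its call, with 3303 genes past the adjusted p against 3760. Same-numbered samples of the groups deviated with correlations of -0.052, -0.081 and 0.16, so the numbers were not taken to pair the samples, and not every sample correlated best with its own number. Leaving out GSK replicate 1 gave the fewest genes past the adjusted p, 2569. The shares of the RUNX genes kept their direction with raw counts or the longest transcript in place of exon length. With 3 samples per group, genes under about 10 counts in most samples were not tested. Ptgdr2, Cd40lg, Cd22 and Nr1d1 reached that level in every GSK sample but not in every Veh sample, and Fcgr3 the reverse.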
